A study of Mus musculus with 14 samples.

Results

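Branched-chain amino acid breakdown was followed in brown adipose tissue through 10 genes: Slc25a44, Bcat2, Bckdha, Bckdhb, Dbt, Bckdk, Ppm1k, Ivd, Mccc1 and Mccc2. They were listed by name for their function, with earlier results of these data known. Each symbol was matched to an Ensembl identifier of the expression table, which gave 10 genes of 35275. All 10 passed the filter on low values, with 13079 genes tested. The mice were 8 weeks old and of strain C57BL/6, and every animal carried LrpprcFF, the floxed alleles of Lrpprc, a nuclear gene for a mitochondrial RNA-binding protein. Knockouts (LrpprcFF Ucp1-Cre) also carried Cre recombinase under the Ucp1 promoter, which is active in thermogenic adipocytes, and controls (LrpprcFF) had no Cre, so an effect of Cre itself cannot be told apart from the deletion. There were 4 controls and 4 knockouts at room temperature (22 °C), and 3 controls and 3 knockouts at thermoneutrality (30 °C). The labels name brown adipocytes but describe RNA from homogenized tissue, so fewer cells of a type and less RNA per cell cannot be told apart. Libraries carry individual identifiers that were taken as separate animals, and p-values measure the spread between them.

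Leucine, isoleucine and valine are the branched-chain amino acids. Inside mitochondria a transaminase turns them into ketoacids, which the branched-chain ketoacid dehydrogenase (BCKDH) complex commits to oxidation; a kinase switches this complex off and a phosphatase switches it on. Each amino acid then follows its own branch to acetyl-CoA, acetoacetate or propionyl-CoA. In brown adipose tissue these amino acids are a known fuel of thermogenesis in the cold, imported into mitochondria by the carrier encoded by Slc25a44.

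Mccc1 and Mccc2 encode the alpha and beta subunits of methylcrotonyl-CoA carboxylase, the biotin enzyme of leucine breakdown. Their products form a single enzyme, and with all animals both RNAs were called higher at 22 °C than at 30 °C in both genotypes. Their promoters are shown for that reason. In controls both calls were lost without the 22 °C controls whose identifiers begin with E. The ranges of both genes also overlapped in controls, and sex differs along with temperature. Each sequence is the 250 bases before the RefSeq start of transcription on the GRCm38.p6 build, at chr3:36000679-36000928 for Mccc1 and chr13:100015640-100015889 for Mccc2, both on the minus strand and printed 5′ to 3′ along the gene. Capitals mark CCAAT or its reverse complement ATTGG.
Mccc1: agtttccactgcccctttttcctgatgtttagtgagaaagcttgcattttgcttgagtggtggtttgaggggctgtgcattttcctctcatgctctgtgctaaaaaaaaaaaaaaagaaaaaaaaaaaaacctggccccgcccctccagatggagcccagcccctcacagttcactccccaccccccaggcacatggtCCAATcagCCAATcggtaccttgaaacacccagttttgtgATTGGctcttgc
Mccc2: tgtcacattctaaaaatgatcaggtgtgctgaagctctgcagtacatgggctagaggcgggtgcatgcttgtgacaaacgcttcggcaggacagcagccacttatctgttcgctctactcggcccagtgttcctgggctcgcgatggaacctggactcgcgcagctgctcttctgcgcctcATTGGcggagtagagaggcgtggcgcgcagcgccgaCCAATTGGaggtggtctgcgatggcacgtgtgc
Each promoter held 3 matches, and in Mccc2 a match on one strand overlapped a match on the other. CCAAT on either strand occurred in 33.8% of 32851 promoters of that length and in 6 of the 10 promoters that the table holds for 8 members, 1 each of Bckdhb, Bckdk, Ivd, Mccc1, Mccc2 and Ppm1k. GGGCGG occurred in 32.7% of promoters and in 3 of these 10 (Bckdhb, Mccc1 and Ppm1k). TGACGTCA, a cyclic-AMP response element that is its own reverse complement, occurred in 1.55% of promoters and in 0 of the 10. These are matches of letters in a window and say nothing of binding. Dbt and Slc25a44 were not matched.

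Levels are in FPKM (sequenced fragments corrected for the length of the gene and the size of the library), divided here by a factor for each library, 0.823 to 1.20, and called scaled FPKM. Depth, recovered from the steps between low values, was 15.98 to 21.42 M fragments. Lrpprc was at 57.3, 50.6, 36.1 and 25.3 scaled FPKM in the 22 °C controls against 8.84 to 11.2 in the 22 °C knockouts, and at 30.3 to 32.7 against 4.97 to 8.56 at 30 °C. In log2 units the knockouts differed by -1.86 ± 0.21 (SE) at 22 °C and by -2.06 ± 0.25 at 30 °C (limma adjusted p = 0.000374 and 0.000377). Identifiers of 2 of the 4 controls at 22 °C begin with R and those of all other animals with E; the labels do not say what the letter means. The R controls had a summed level of 10 skeletal muscle markers of 7189 and 4190 scaled FPKM, against 600 and 469 in the E controls. That sum was 569 to 1474 in the 22 °C knockouts, 24.6 to 14497 in the 30 °C controls and 2214 to 9405 in the 30 °C knockouts. Of 10 muscle markers 0 were called in any comparison, against up to 51.1% of all genes, but their SE was wide (1.21 to 2.42). Between 2 groups, medians of their log2 differences ran from -2.17 (22 °C minus 30 °C in knockouts) to 1.90 (knockout minus control at 30 °C). In 22 °C controls, 22 °C knockouts, 30 °C controls and 30 °C knockouts, 10 brown adipocyte markers summed to 15551 to 20899, 12168 to 15864, 11142 to 13837 and 6142 to 8110. Fabp4 alone averaged 12258, 8411, 8346 and 4683, so it weighs most in this sum. At 22 °C 5 of the 10 markers were above 0 in knockouts and 5 below, with a median log2 difference of 0.12. No listed marker was at 0 in every animal of a group. Xist was at most 0.0139 scaled FPKM at 22 °C and at least 9.70 at 30 °C, and the Y-linked Ddx3y was at least 16.3 at 22 °C and at most 0.0242 at 30 °C, so housing temperature and sex cannot be told apart.

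All 10 members were expressed in every animal, over a wide span of levels. Bckdha, the E1 alpha subunit of BCKDH, had the highest scaled FPKM in each of the 14 libraries (269 to 448), and Ppm1k, the BCKDH phosphatase, the lowest (4.10 to 13.1). In the 22 °C controls the mean level fell in the order Bckdha 368, Ivd 115, Bckdhb 109, Bcat2 93.6, Mccc2 64.6, Dbt 60.2, Bckdk 57.4, Slc25a44 41.4, Mccc1 29.8 and Ppm1k 9.54 scaled FPKM. Ranges of neighbours in this order overlapped except between Bckdha and Ivd, Bcat2 and Mccc2, Bckdk and Slc25a44, and Mccc1 and Ppm1k. The spread among those 4 animals was uneven: the highest animal exceeded the lowest 2.47-fold in Mccc1, 2.36-fold in Ppm1k, 2.31-fold in Ivd and 2.30-fold in Dbt, but 1.16-fold in Bckdk.

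**Figure D1:**
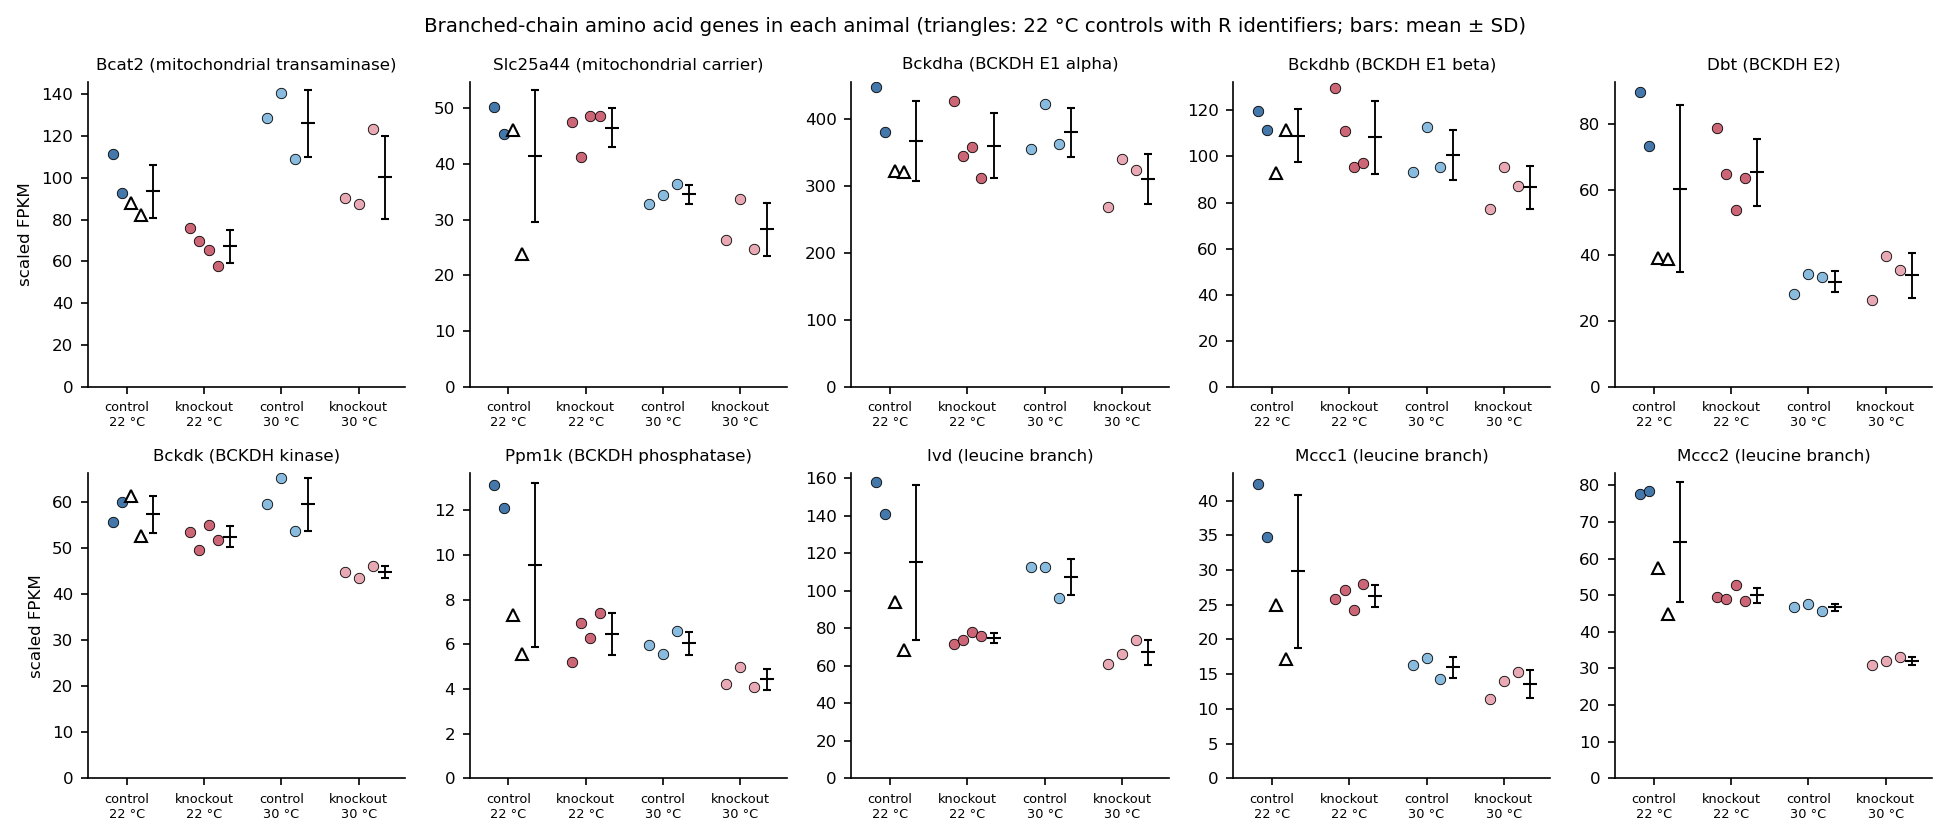
Scaled FPKM of each of the 10 genes (vertical axes, each from 0) in each animal by group, with bars for mean ± SD; triangles are the 22 °C controls with R identifiers. Bcat2, Bckdha, Dbt, Ppm1k, Ivd, Mccc1 and Mccc2 show the R controls below the E controls. Bckdk is lowest in the 30 °C knockouts, where it lies between 43.5 and 46.2.

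The first comparison asked how deletion of Lrpprc at room temperature changed the pathway. No member passed the test (0 of 10, where 1.97% of all genes tested were called), and 3 members had an unadjusted p under 0.05, against 15.8% of all genes. Fold changes were below 0 in 8 of 10 members, against 49.5% of all genes, and the median log2 fold change was -0.11, against 0.0024 over all genes. Bcat2, Ivd and Ppm1k had the lowest values relative to controls, and Slc25a44 and Dbt were above 0.

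Bcat2 (ENSMUSG00000030826), the mitochondrial branched-chain transaminase, was at 111, 92.9, 87.9 and 82.1 scaled FPKM in the 22 °C controls and at 76.2, 69.6, 65.6 and 57.6 in the knockouts. Every knockout lay below every control, which held for this member alone (1 of 10 lower without overlap, against 4.53% of all genes). On the log2 scale the knockouts differed by -0.47 ± 0.14 (SE), which did not pass (limma adjusted p = 0.106). Slc25a44 (ENSMUSG00000050144), the mitochondrial carrier, was at 50.2, 45.4, 46.1 and 23.8 in controls and at 47.4, 41.2, 48.6 and 48.6 in knockouts. One R control was far below the other 7 animals, and without it the log2 difference went from 0.21 ± 0.19 to -0.026.

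The BCKDH subunits differed little by genotype at 22 °C. Bckdha (ENSMUSG00000060376) was at 448, 381, 323 and 320 scaled FPKM in controls and at 427, 346, 358 and 312 in knockouts, a log2 difference of -0.02 ± 0.14. Bckdhb (ENSMUSG00000032263), the E1 beta subunit, was at 120, 111, 92.8 and 112 against 130, 111, 95.4 and 97.0, a difference of -0.01 ± 0.12. For both genes the groups overlapped almost wholly, and the sign of the difference turned with other scalings. Dbt (ENSMUSG00000000340), the E2 subunit that carries the lipoyl core, was at 89.7, 73.1, 39.1 and 38.9 in controls and at 78.7, 64.7, 53.9 and 63.5 in knockouts. Every knockout lay above both R controls, and the highest knockout exceeded 1 E control.

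Of the regulators, the kinase gene Bckdk (ENSMUSG00000030802) was at 55.6, 60.1, 61.2 and 52.6 scaled FPKM in 22 °C controls and at 53.6, 49.6, 55.1 and 51.8 in knockouts (log2 difference -0.12 ± 0.08). Ppm1k (ENSMUSG00000037826) was at 13.1 and 12.1 in the E controls, 7.33 and 5.56 in the R controls, and 5.22, 6.97, 6.27 and 7.40 in the knockouts. Knockouts thus overlapped the R controls and lay below both E controls, with a log2 difference of -0.44 ± 0.21 over all animals (limma adjusted p = 0.324).

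The leucine branch had the same arrangement. Ivd (ENSMUSG00000027332), isovaleryl-CoA dehydrogenase, was at 158 and 141 scaled FPKM in the E controls, 93.7 and 68.3 in the R controls and 71.8, 73.8, 78.0 and 75.7 in the knockouts (log2 difference -0.54 ± 0.20; limma adjusted p = 0.207). Mccc1 (ENSMUSG00000027709) was at 42.4, 34.8, 24.9 and 17.2 in controls and at 25.9, 27.1, 24.3 and 28.0 in knockouts. Mccc2 (ENSMUSG00000021646) was at 77.5, 78.4, 57.6 and 44.8 in controls and at 49.7, 48.9, 52.8 and 48.5 in knockouts (log2 difference -0.33 ± 0.14; limma adjusted p = 0.284). For all 3 genes the knockouts lay close together and below both E controls, while the groups overlapped through the R controls.

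The 2 kinds of control gave different pictures of the deletion at 22 °C. Without the R controls, Ppm1k (-0.88), Ivd (-0.99) and Mccc2 (-0.64) were called lower in knockouts by limma, all 10 log2 differences were below 0 and their median was -0.43. Of all 13079 genes, 191 were then called lower and 93 higher. Without the E controls, an alternative chosen after the data were seen, 0 of 10 were called, 6 were above 0 and the median was 0.05. Of all genes, 246 were then called. Between the 2 pairs of controls, 7 of 10 members were lower in both R than in both E animals, against 25.5% of all genes, and 0 were higher, against 31.1%, so that 7 of 10 did not overlap, against 56.6% in either direction. By over 1.5-fold 5 were lower without overlap, against 4.25% of all genes. These 5 were Dbt (2.05-fold), Ivd (1.85-fold), Ppm1k (1.84-fold), Mccc1 (1.82-fold) and Mccc2 (1.52-fold), given as values of 2 animals each with no test. The median log2 difference of R from E was -0.56 over the members and 0.05 over all genes. The R pair also had the higher muscle sum and lower Lrpprc given above, and the part of muscle RNA in these values was not tested. The muscle sums of the 30 °C controls were 14497, 4956 and 24.6. In the same order of animals Dbt was at 28.2, 34.2 and 33.4 scaled FPKM, Ivd at 113, 113 and 96.3, Ppm1k at 5.95, 5.58 and 6.60, Mccc1 at 16.3, 17.4 and 14.3, and Mccc2 at 46.7, 47.7 and 45.6.

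**Figure D2:**
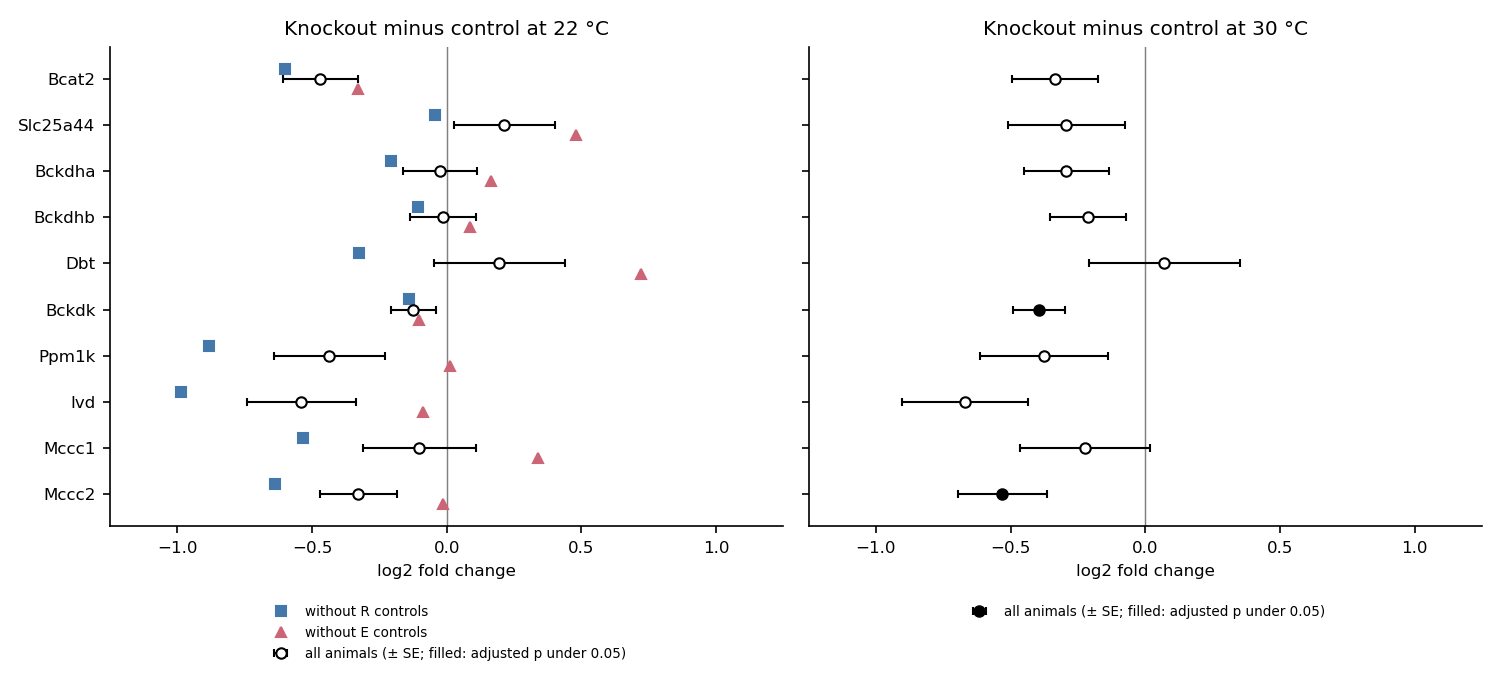
Log2 fold change of each member, knockout minus control (horizontal axis), at 22 °C (left) and 30 °C (right); circles are all animals with SE, filled where the limma adjusted p is under 0.05, squares leave out the R controls and triangles the E controls. At 22 °C the squares all lie below 0 and the triangles run from -0.33 to 0.72; at 30 °C the filled circles are Bckdk and Mccc2.

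At thermoneutrality, Bckdk and Mccc2 fell in knockouts (2 of 10 lower, where 5.28% of all genes were called lower, and 14.1% in either direction). Fold changes were below 0 in 9 of 10, against 41.7% of all genes, with a median log2 fold change of -0.31, against 0.065 over all genes. In 5 members (Bckdha, Bckdk, Ppm1k, Ivd and Mccc2) every knockout lay below every control, against 14.6% of all genes.

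Bckdk was at 59.5, 65.2 and 53.7 scaled FPKM in the 30 °C controls and at 44.8, 43.5 and 46.2 in the knockouts. The knockouts were lower in 3 of 3 animals and closer together than the controls, with a log2 fold change of -0.40 ± 0.10 (SE; limma adjusted p = 0.0164). Ppm1k, which acts against the kinase, was at 5.95, 5.58 and 6.60 in controls and at 4.21, 4.98 and 4.10 in knockouts (-0.38 ± 0.24; limma adjusted p = 0.330). The groups did not overlap, though the difference did not pass.

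Mccc2 was at 46.7, 47.7 and 45.6 scaled FPKM in 30 °C controls and at 30.8, 32.0 and 33.1 in knockouts, which put the knockout mean at 68.6% of the control mean (log2 fold change -0.53 ± 0.17; limma adjusted p = 0.0486). Its partner Mccc1 was at 16.3, 17.4 and 14.3 in controls and at 11.4, 14.1 and 15.3 in knockouts, with overlapping groups (-0.22 ± 0.24). Ivd was at 113, 113 and 96.3 in controls and at 61.0, 66.4 and 73.9 in knockouts. All 3 Ivd knockouts were lower, the log2 difference of -0.67 ± 0.23 was the most negative of the 10, and it missed the threshold (limma adjusted p = 0.0740).

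Bcat2 was at 129, 140 and 109 scaled FPKM in 30 °C controls and at 90.1, 87.6 and 123 in knockouts, where 1 knockout lay among the controls (-0.34 ± 0.16). Slc25a44 was at 32.8, 34.4 and 36.3 against 26.2, 33.7 and 24.7 (-0.29 ± 0.22). Bckdha was at 356, 423 and 363 against 269, 341 and 324 (-0.29 ± 0.16). Bckdhb was at 93.2, 113 and 95.4 against 77.0, 95.5 and 87.1 (-0.21 ± 0.14), and Dbt at 28.2, 34.2 and 33.4 against 26.4, 39.9 and 35.5 (0.07 ± 0.28). Bckdha did not overlap between groups, while Bcat2, Slc25a44, Bckdhb and Dbt did.

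Both calls at 30 °C changed with the scaling and with single animals. With FPKM as deposited, where the median of all genes was 0.31, neither was called (Bckdk -0.10, Mccc2 -0.24, both below that median), and neither was with libraries set to the same nuclear total. Without any 1 animal, 0 or 1 of the 2 remained called: Mccc2 was not called without any of the 6 animals, and Bckdk was not called without 30 °C control 1, 30 °C control 2 or 30 °C knockout 1. Macrophage markers moved with the genotype here: their sum was 125 to 417 scaled FPKM in controls and 630 to 1805 in knockouts. Of these 10 markers 9 were called higher, against 8.82% of all genes. Of 10 brown adipocyte markers 4 were called lower, against 5.28% of all genes, and 2, Dio2 (0.98) and Ppargc1a (0.20), were above 0. The part of such cells in the members' values was not tested.

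The difference between the 2 knockout effects was tested directly. No member passed, nor did any of the 13079 genes (0 called by limma; 0 members and 1694 genes, 13% of all, had an unadjusted p under 0.05). Slc25a44 had the largest member difference, with a knockout effect 0.51 ± 0.29 higher on the log2 scale at 22 °C than at 30 °C (limma adjusted p = 0.499). Bckdk was next in size and had the smallest p-value of the members, with 0.27 ± 0.13 (limma adjusted p = 0.387). The effects at 22 °C and 30 °C are therefore not shown to differ for any member.

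Between temperatures, Dbt, Mccc1 and Mccc2 were higher and Bcat2 was lower at 22 °C than at 30 °C in both genotypes, and Slc25a44 was higher in knockouts. In controls this made 4 of 10 members called, where 38.8% of all genes were called, and in knockouts 5 of 10, where 51.1% were, so the shares were near those of all genes. By direction, 3 members were higher in controls (18.2% of all genes) and 4 in knockouts (21.8%), and 1 was lower in each (20.6% and 29.4%). The 22 °C and 30 °C ranges did not overlap for 1 member in controls (Dbt, higher; 19.9% of all genes higher, and 23.6% lower with 0 members) and for 7 in knockouts (6 higher, against 24% of all genes, and Bcat2 lower, against 31.7%). Sex differs along with temperature in these animals, and so do markers of cell types. Of 10 macrophage markers, 6 were called lower at 22 °C in controls and 10 in knockouts (sums of 59.2 to 86.9 against 125 to 417 scaled FPKM, and 98.4 to 216 against 630 to 1805). Of 10 brown adipocyte markers, 6 were called higher and 1 lower in controls and 8 higher in knockouts. Of 10 muscle markers 0 were called, with 10 below 0 in knockouts (median -2.17) and 8 above 0 in controls (median 0.29). The part of these cells in the members' values was not tested.

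Dbt in controls averaged 60.2 ± 25.4 scaled FPKM (SD, n = 4) at 22 °C and 31.9 ± 3.23 (SD, n = 3) at 30 °C, with every 22 °C animal above every 30 °C animal (log2 difference 0.80 ± 0.26; limma adjusted p = 0.0284). In knockouts it averaged 65.2 ± 10.2 and 33.9 ± 6.84, again without overlap (0.93 ± 0.26; limma adjusted p = 0.0101). Mccc1 averaged 29.8 ± 11.1 and 15.97 ± 1.57 in controls (0.79 ± 0.23; limma adjusted p = 0.0153) and 26.3 ± 1.58 and 13.6 ± 2.02 in knockouts (0.91 ± 0.23; limma adjusted p = 0.00472). Its lowest 22 °C control, an R animal, lay within the range of the 30 °C controls, while the knockouts were apart.

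Mccc2 was higher at 22 °C by 0.42 ± 0.16 in controls (limma adjusted p = 0.0451) and by 0.63 ± 0.16 in knockouts (limma adjusted p = 0.00484), where the lowest 22 °C animal was at 48.5 scaled FPKM and the highest 30 °C animal at 33.1. In controls the ranges overlapped, at 44.8 to 78.4 against 45.6 to 47.7. Slc25a44 in knockouts averaged 46.5 ± 3.55 at 22 °C and 28.2 ± 4.78 at 30 °C, without overlap (0.71 ± 0.20; limma adjusted p = 0.0110). Its difference in controls was 0.20 ± 0.20 and did not pass. Bcat2 moved the other way: it averaged 93.6 ± 12.7 at 22 °C and 126 ± 15.9 at 30 °C in controls (-0.43 ± 0.15; limma adjusted p = 0.0371), and 67.2 ± 7.77 and 100.3 ± 19.8 in knockouts (-0.56 ± 0.15; limma adjusted p = 0.00724), where every 22 °C knockout lay below every 30 °C knockout.

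The control comparison depended on which 22 °C controls were used. Without the R controls 6 members were called higher and 0 lower, with Slc25a44 (0.46), Ppm1k (0.96) and Ivd (0.47) joining and Bcat2 (-0.30) no longer called. Of all 13079 genes, 2853 were then called higher and 3253 lower. Without the E controls Bcat2 alone was called, and Dbt (0.29), Mccc1 (0.36) and Mccc2 (0.12) were not. Of all genes, 1157 were then called higher and 1133 lower. With 1 of the 7 control animals left out at a time, the calls of Dbt, Mccc2 and Bcat2 were each lost 5 times, and that of Mccc1 1 time. The knockout comparison uses no control at all for its difference. Leaving controls out changed its estimate of spread and, slightly, the scaling. Without the R controls 8 members were called in it, 7 higher and 1 lower. Calls over all genes in that setting were 3186 higher and 4185 lower.

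**Figure D3:**
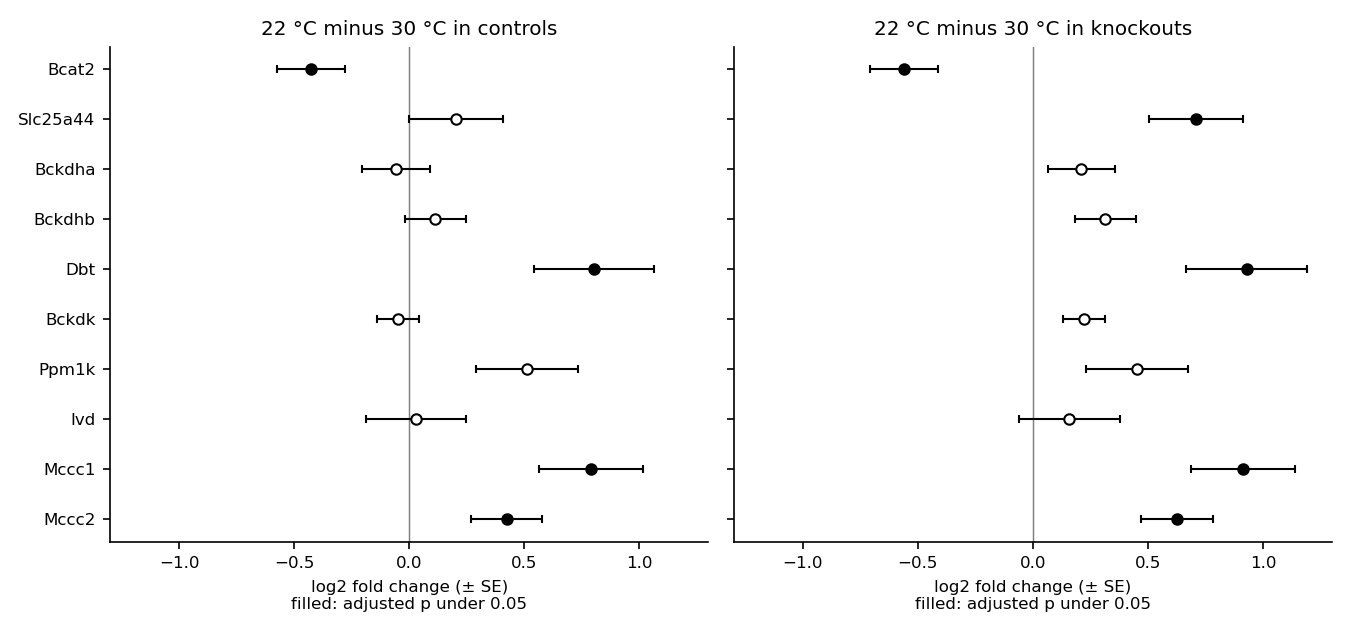
Log2 fold change of each member, 22 °C minus 30 °C (horizontal axis, ± SE), in controls (left) and knockouts (right), filled where the limma adjusted p is under 0.05. Dbt, Mccc1 and Mccc2 lie above 0 and Bcat2 below 0 in both, and Slc25a44 is filled in knockouts only, a contrast between genotypes that did not pass its own test.

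Ratios of 2 members in a library do not depend on the scaling. The ratio of Ppm1k to Bckdk, phosphatase to kinase, was 0.236 and 0.202 in the E controls, 0.120 and 0.106 in the R controls, and 0.0974, 0.141, 0.114 and 0.143 in the 22 °C knockouts. At 30 °C it was 0.09999, 0.0856 and 0.123 in controls and 0.0940, 0.115 and 0.0887 in knockouts. The E controls thus stood above the other 12 animals. The ratio of Bckdha to Bckdhb was 3.38 ± 0.36 (SD, n = 4) in 22 °C controls, 3.34 ± 0.28 (n = 4) in 22 °C knockouts, 3.79 ± 0.04 (n = 3) in 30 °C controls and 3.59 ± 0.12 (n = 3) in 30 °C knockouts. The 30 °C controls lay above all 30 °C knockouts (exact permutation p = 0.1) and above all 22 °C controls (exact permutation p = 0.0571), each the smallest p these groups allow.

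The ratio of Mccc1 to Mccc2 was 0.348, 0.364 and 0.313 in 30 °C controls and 0.368, 0.439 and 0.463 in 30 °C knockouts, so every knockout lay above every control (exact two-sided permutation p = 0.1, the smallest that 3 against 3 allows). It was 0.547, 0.443, 0.433 and 0.383 in 22 °C controls, all above the 30 °C controls (exact permutation p = 0.0571, the smallest that 4 against 3 allows), and 0.521, 0.554, 0.461 and 0.576 in 22 °C knockouts. Over 3 ratios and 4 comparisons, 12 in all, exact permutation p ran from 0.0571 to 0.971 and the smallest Benjamini-Hochberg value was 0.229. No ratio passed.

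**Figure D4:**
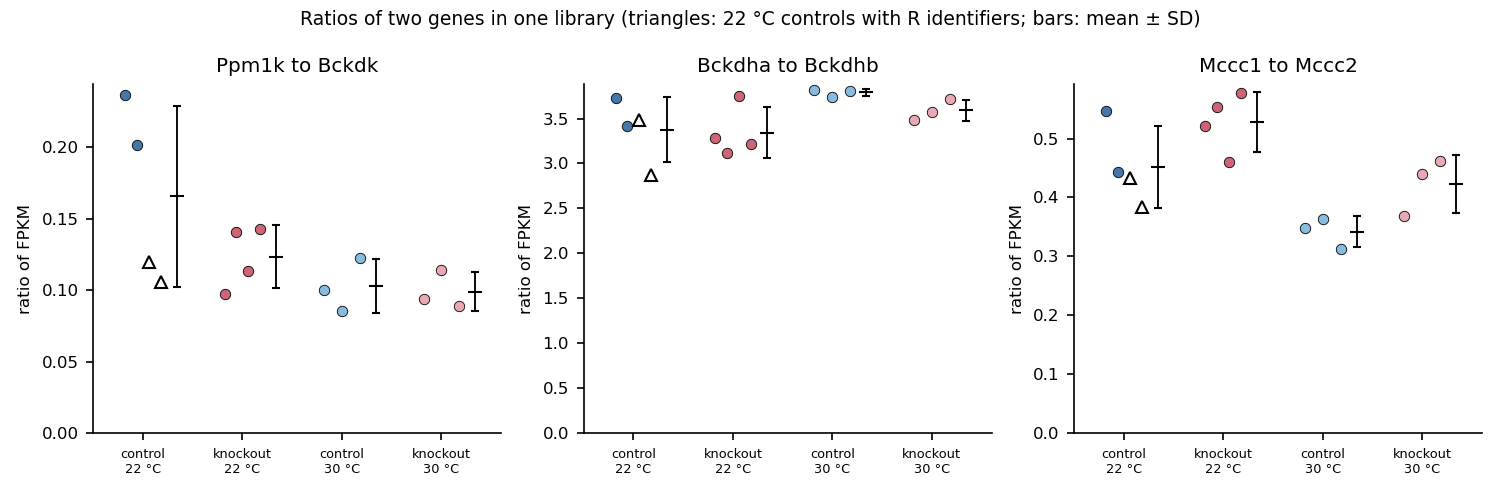
Ratio of FPKM of 2 members in each library (vertical axes, from 0) by group, with bars for mean ± SD; triangles are the R controls. The 2 E controls have the highest ratios of Ppm1k to Bckdk, at 0.236 and 0.202.

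Of 28 other genes of branched-chain amino acid transport and breakdown, 26 passed the filter; the transporter Slc6a15 and the cytosolic transaminase Bcat1 did not, with highest values of 0.0798 and 0.650 scaled FPKM. At 22 °C Slc3a2, the heavy chain of the leucine transporter at the plasma membrane, rose in knockouts and Hsd17b10, an isoleucine-branch dehydrogenase, fell (2 of 26 called, against 1.97% of all genes). At 30 °C 2 rose, Slc3a2 and Slc7a5, its light-chain partner, and 10 fell, against 8.82% and 5.28% of all genes. The median log2 fold change of the 26 was -0.18 at 22 °C and -0.54 at 30 °C.

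Slc3a2 ranged from 15.4 to 25.3 scaled FPKM in 22 °C controls and from 42.0 to 117 in knockouts (log2 fold change 1.49 ± 0.27; limma adjusted p = 0.0155). At 30 °C it ranged from 31.2 to 35.3 and from 49.2 to 80.9 (1.0 ± 0.31; limma adjusted p = 0.0478). That call at 30 °C was lost without the R controls, without the E controls and without any 1 of the 30 °C animals other than knockout 2, and the call at 22 °C without the E controls or without the first of them alone. Slc7a5 was weakly expressed, at 0.602 to 0.811 in 30 °C controls and 3.3 to 9.32 in knockouts (1.73 ± 0.38; limma adjusted p = 0.0111), and its fold change is understated by the pseudocount of 1. Hsd17b10, which also serves mitochondrial tRNA processing, was at 202 ± 17.8 in 22 °C controls and 129 ± 12.0 in knockouts (SD, n = 4 each; -0.64 ± 0.10; limma adjusted p = 0.00545), and fell by 0.86 at 30 °C (limma adjusted p = 0.000772).

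The genes of this wider list that fell at 30 °C by limma were spread over the branches, where 5.28% of all genes were called lower. Under the leucine branch 3 of 3 such genes fell: Auh, methylglutaconyl-CoA hydratase (-0.56), Acat1 (-0.75) and Oxct1 (-0.67), the last a ketone-using enzyme. The list placed each gene in a single branch, though Acat1 also serves isoleucine breakdown, so these counts follow the list. Of the members in the leucine branch, Mccc2 was called lower, and Ivd and Mccc1 were not called. In the isoleucine branch 3 of 5 fell: Hsd17b10 together with Echs1 (-0.81) and Acaa2 (-0.91), which also serve fatty acid oxidation. In the valine branch 1 of 5 fell, the isobutyryl-CoA dehydrogenase Acad8 (-0.50), and in the propionyl-CoA branch 2 of 6, Mcee (-0.74) and Mmaa (-0.72). Klf15, a transcription factor known to act on genes of this pathway, fell by 0.77. In all 10 every knockout lay below every control. They were picked by their calls in this same comparison, which makes such separation likely, so it adds no support. The same held for Dld, Acadsb, Hadha, Hibadh, Aldh6a1, Pcca and Mmab, which were not called, while Hibch, Pccb and Mmut overlapped. Abat, listed in the valine branch and weakly expressed, went the other way, with every knockout above every control. It ranged from 0.543 to 0.817 scaled FPKM in 30 °C controls and from 0.856 to 1.17 in knockouts. Its log2 difference of 0.26 was not called (limma adjusted p = 0.197).

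Counts in this wider list at 30 °C moved with the settings. With FPKM as deposited 3 were called higher and 4 lower, with the same nuclear total 2 and 5, without the R controls 1 and 16, and without the E controls 1 and 15. Of all 13079 genes, 4280 were called higher and 291 lower as deposited, and 2225 and 409 with the same nuclear total. Without the R controls these were 1483 and 945, and without the E controls 1186 and 805. With 1 animal left out the 12 calls became 5 to 14, and 7 or fewer without any 1 of the 30 °C animals other than knockout 2. Calls over all genes then ran from 890 to 2249, against 1845 with every animal. The 16 listed genes of the citric acid cycle, another mitochondrial pathway, had 9 called lower and a median of -0.65 at 30 °C, and 10 genes of pyruvate dehydrogenase and its regulators had 1 called in each direction and a median of -0.35. These lists stand beside the members' median of -0.31, with no test between them.

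**Figure D5:**
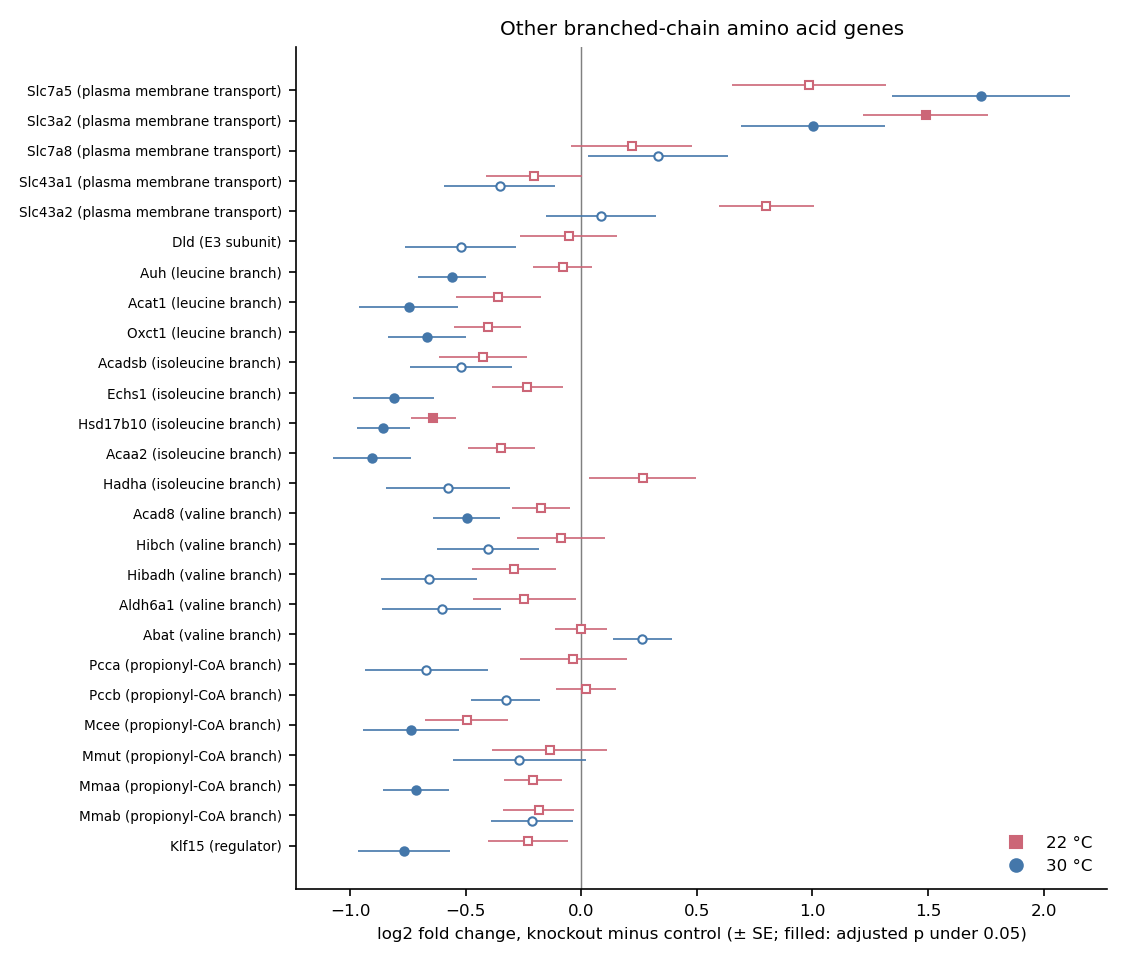
Log2 fold change, knockout minus control (horizontal axis, ± SE), of the 26 other genes at 22 °C (squares) and 30 °C (circles), filled where the limma adjusted p is under 0.05. Slc7a5 and Slc3a2 lie highest, at 1.73 and 1.0 at 30 °C, and the 10 filled circles below 0 range from -0.91 to -0.50.

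Between temperatures, 8 of the 26 were called in controls, 5 higher and 3 lower at 22 °C, and 19 in knockouts, 15 higher and 4 lower. Of all genes, 18.2% were called higher and 20.6% lower in controls, and 21.8% and 29.4% in knockouts. The largest changes in controls were Slc7a8, a neutral amino acid transporter, at -1.35, Mmut, methylmalonyl-CoA mutase, at 0.95, and the transporter Slc43a2 at -0.77 (limma adjusted p = 0.00319, 0.0146 and 0.0164). In knockouts they were Slc7a8 at -1.47, Slc7a5 at -1.29 and Hadha, a subunit of the mitochondrial trifunctional protein, at 1.27 (limma adjusted p = 0.00106, 0.00925 and 0.00127). In controls, 14 were called higher and 2 lower without the R controls, and 0 higher and 3 lower without the E controls. Of all 13079 genes, 2853 and 3253 were so called without the R controls, and 1157 and 1133 without the E controls.

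The mean profile of the 10 members over the 4 groups, centred on the log2 scale, was 0.24 in 22 °C controls, 0.08 in 22 °C knockouts, 0.01 in 30 °C controls and -0.32 in 30 °C knockouts. Of 7781 other genes with a mean FPKM of at least 5, the profiles nearest to it were those of Urod (root mean square distance 0.0105), Tomm5 (0.0129) and Pdzd11 (0.0149), a likeness over 4 group means that share libraries. The members themselves lay farther off, from 0.0834 for Bckdhb to 0.419 for Bcat2.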

How the data were processed

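RNA from brown adipose tissue of 14 mice was sequenced on an Illumina HiSeq 2000, per the labels. The authors deposited FPKM per gene and animal. The submitters' processing notes name mm9; the aligner, counter and use of strand are not given in the sources used here. Symbols came from GENCODE M21 (34490 of 35275 genes matched), and promoters from RefSeq. Depth, recovered from whole-read steps (92.8% to 94.7% of tested values whole), covers counting error only.

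Genes with FPKM of at least 1 in at least 3 libraries were kept. Libraries were scaled by the median ratio to the geometric mean over 10049 nuclear genes. Log2(scaled FPKM + 1) was fitted with a mean per group over all 14 libraries (limma 3.58.1 in R 4.3.3, eBayes with trend), two-sided, with Benjamini-Hochberg adjustment over 13079 genes, and an adjusted p under 0.05 was called. Fold changes are on the log2(value + 1) scale and errors are SE. Ratios were tested by exact permutation. Scripts were tested on simulated data. All members were named, with other listed genes called in a knockout comparison or among the 3 largest called temperature changes. One listed gene outside the members is not reported here. Members and lists were chosen with earlier results of these data known. Alternatives covered the pseudocount, filter, scaling, groups fitted, variance model, weights and animals left out.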

Additional observations from a re-analysis of the deposited data

Results flagged for a closer look

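Among 26 groups of 4 animals examined for a value standing apart, the lowest 22 °C knockout for Slc25a44, at 41.2 scaled FPKM, stood apart because its gap to the other 3 (47.4 to 48.6) took up most of the range of the group. Chance alone singles out about 1 in 20 such groups.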

How the results depend on the processing

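No paired analysis was possible because animals carry individual identifiers that are not shared between groups. Counts are members called by limma; other values are log2 differences. For knockouts at 22 °C the count was 0, but 1 with FPKM as deposited (Slc25a44, higher), 4 with sample weights (Bcat2, Ppm1k, Ivd and Mccc2, lower) and 3 without the R controls. Of all 13079 genes, 258 were called, but 3248 as deposited (3167 higher). With sample weights 906 were called (503 lower), and without the R controls 284 (191 lower). For knockouts at 30 °C the member count was 2, but 0 with FPKM as deposited and with the same nuclear total. It was 1 with a pseudocount of 0.1, no filter or no variance trend. Of all genes, 1845 were called, but 4571 as deposited, 2634 with the same nuclear total and 1623 with a pseudocount of 0.1. With no filter 1663 of 24190 were called, and with no variance trend 1838 of 13079. Between temperatures in controls the member count was 4, but 1 with no filter, 0 with only the compared groups and 1 without the E controls. Calls over all genes were 5072, but 4922 of 24190 with no filter, 4084 with only the compared groups and 2290 without the E controls. In knockouts the member count was 5, but 8 with quantile normalization and without the R controls. Calls over all genes were 6689, 7127 and 7371 in that order. With 1 animal left out the member counts ran from 0 to 2 (knockouts at 22 °C), 0 to 1 (knockouts at 30 °C), 1 to 5 (controls between temperatures) and 4 to 6 (knockouts between temperatures). In the same order, calls over all genes ran from 71 to 271, 890 to 2249, 3497 to 5742 and 5239 to 6556. The difference of effects had 0 members called under every alternative run.

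Directions turned as follows. With FPKM as deposited, knockout differences at 22 °C were 0.28 (Bckdha), 0.29 (Bckdhb), 0.18 (Bckdk) and 0.19 (Mccc1), where the median gene was at 0.24. At 30 °C they were 0.0049 (Bckdha), 0.082 (Bckdhb) and 0.056 (Mccc1), where it was at 0.31, and Ivd in controls between temperatures was -0.075. With quantile normalization they were 0.19 (Bckdha) and 0.10 (Bckdhb) at 22 °C, 0.0095 for Bckdha in controls and 0.092 for the Ppm1k difference of effects. With the same nuclear total they were 0.12 (Bckdha), 0.13 (Bckdhb), 0.019 (Bckdk) and 0.039 (Mccc1) at 22 °C. With sample weights Dbt was -0.13 at 22 °C, and differences of effects were -0.19 (Dbt), -0.18 (Ivd), -0.15 (Mccc1) and -0.033 (Mccc2). Without the R controls Slc25a44 was -0.045 and Dbt -0.32 at 22 °C, Bckdha in controls 0.12, and differences of effects -0.39 (Dbt), -0.31 (Ivd), -0.31 (Mccc1) and -0.10 (Mccc2). Without the E controls knockout differences at 22 °C were 0.16 (Bckdha), 0.087 (Bckdhb), 0.013 (Ppm1k) and 0.34 (Mccc1), those in controls -0.054 (Slc25a44) and -0.42 (Ivd), and differences of effects 0.017 (Bcat2) and 0.40 (Ppm1k). The cause was not tested.

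With 1 animal left out, values at 22 °C ran from -0.026 to 0.32 (Slc25a44), -0.11 to 0.073 (Bckdha), -0.10 to 0.044 (Bckdhb) and -0.33 to 0.089 (Mccc1), and Dbt at 30 °C from -0.052 to 0.24. In controls between temperatures they ran from -0.15 to 0.020 (Bckdha), -0.12 to 0.017 (Bckdk) and -0.14 to 0.25 (Ivd). Differences of effects ran from -0.22 to 0.020 (Bcat2), -0.048 to 0.35 (Dbt), -0.26 to 0.11 (Ppm1k), -0.093 to 0.31 (Ivd) and -0.11 to 0.32 (Mccc1). Log2 ratios ran from -0.088 to 0.038 for Bckdha to Bckdhb at 22 °C and from -0.17 to 0.090 for Ppm1k to Bckdk at 30 °C. None of these had passed its test. At this depth every member was far above the floor of detection, and the number of animals limits the precision.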
